A study of Mus musculus with 33 samples.

Results

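The complement transcripts described here are C3, C4b, C2, Cfb, Serping1, C1ra, C1s1, C3ar1 and C5ar1, taken by symbol from the deposited expression table. They are 9 of the 48795 genes in that table, and the C1q genes were left out of the set. Complement is a cascade of plasma proteins that also arises locally in tissues. The protease C1r activates C1s, which cleaves C4 and C2 to form the classical C3 convertase. Factor B forms the alternative one, and cleavage of C3 and C5 releases the peptides C3a and C5a. In tumours, fibroblasts, macrophages, endothelial cells and the tumour cells themselves can make these components, and interferon gamma is known to induce several of them.

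The tumours were subcutaneous Myc-CaP grafts on both flanks of male FVB mice, an immunocompetent strain. Myc-CaP is a prostate carcinoma line from a mouse that carried a MYC transgene. There were 4 groups of 5 mice: ESK981 (8 tumours), ESK981 together with anti-PD-1, called the combination (8 tumours), anti-PD-1 (7 tumours) and vehicle (10 tumours). ESK981, a kinase inhibitor that also acts on the lipid kinase PIKfyve, was given orally at 15 mg/kg on 5 days a week. The antibody against the T cell checkpoint receptor PD-1, or an isotype antibody in its place, was given by injection at 200 µg per mouse 3 times a week, and tumours were collected after 3 weeks. The labels do not say in so many words which groups received the isotype control. Animal age is not given in the labels. RNA came from whole tumours, so a lower level can mean fewer cells of a type or less RNA per cell, and these cannot be told apart. The tumours are named by mouse number and flank, L for left and R for right. Mouse numbers were given within each group and do not link mice of different groups.

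Libraries held between 1.81e+07 and 3.24e+07 fragments in ESK981 tumours, 1.78e+07 and 2.48e+07 in combination tumours, 1.13e+07 and 2.42e+07 in anti-PD-1 tumours, and 9.90e+06 and 1.84e+07 in vehicle tumours. The library names in the labels hold what reads as a flow cell identifier, and 9 of the 10 vehicle tumours carry one of their own, while vehicle 5R shares its identifier with all 23 treated tumours. Flow cell and treatment can therefore be separated only through vehicle 5R, which is also the shallowest library. The ear tags of the vehicle mice, that of vehicle 5R included, come from a number range apart from that of all treated mice. What this reflects is not given in the labels, and it cannot be told apart from treatment. Summed mitochondrially encoded transcripts ranged from 3990 to 8370 FPKM in ESK981 tumours and from 5680 to 90900 FPKM in vehicle tumours. Transcripts on ribosomal RNA sequence summed to between 1.50e+04 and 8.64e+04 FPKM in ESK981 tumours and between 1.27e+05 and 2.40e+05 FPKM in vehicle tumours, with no overlap. The 8 epithelial and prostate tumour markers of the list together summed to between 71.1 and 268 FPKM over all 33 tumours.

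On build GRCm38 (GENCODE M21), the genes lie on 4 chromosomes. Chromosome 17 carries C3 (ENSMUSG00000024164.15, 57203970 to 57228136) and, in the major histocompatibility complex, C4b (ENSMUSG00000073418.4, 34728380 to 34743882), Cfb (ENSMUSG00000090231.10, 34856374 to 34862518) and C2 (ENSMUSG00000024371.14, 34862604 to 34898265), all on the minus strand. Chromosome 6 carries C1ra (ENSMUSG00000055172.10, 124512405 to 124523443, plus strand), C1s1 (ENSMUSG00000038521.17, 124530345 to 124542359, minus strand) and C3ar1 (ENSMUSG00000040552.8, 122847138 to 122856161, minus strand). Serping1 (ENSMUSG00000023224.12) lies on chromosome 2 at 84765387 to 84775444, and C5ar1 (ENSMUSG00000049130.6) on chromosome 7 at 16246743 to 16259540, both on the minus strand. Each range covers the whole gene, exons and introns, and the measured value is the read density over its exons.

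The 250 bases before the start are shown for C3 and C1s1, a component and a protease that differed strongly between groups, together with 30 bases just after the start of C1ra, because these hold the motif matches found. The sequences are RefSeq's, on GRCm38.p6, written 5′ to 3′ on the gene's own strand. They span chr17:57228137-57228386 on the minus strand for C3, chr6:124542360-124542609 on the minus strand for C1s1 and chr6:124512636-124512665 on the plus strand for C1ra. Capitals mark matches to the C/EBP motif TTGCNNAA on either strand, and in C1ra also to the GAS motif TTCNNNGAA, the interferon gamma activated sequence.
C3: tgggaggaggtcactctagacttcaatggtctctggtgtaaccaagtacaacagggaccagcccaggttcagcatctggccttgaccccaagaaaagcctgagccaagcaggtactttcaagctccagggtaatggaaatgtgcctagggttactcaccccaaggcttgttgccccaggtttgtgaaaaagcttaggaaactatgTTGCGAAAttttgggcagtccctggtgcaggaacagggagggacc
C1s1: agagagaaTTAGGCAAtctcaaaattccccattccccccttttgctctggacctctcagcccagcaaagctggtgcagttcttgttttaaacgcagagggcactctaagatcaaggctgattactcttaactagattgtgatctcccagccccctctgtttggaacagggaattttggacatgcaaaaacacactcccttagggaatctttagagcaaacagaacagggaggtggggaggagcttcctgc
C1ra: tTTATGCAAatgcttcaTTCCCTGAAacat

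RefSeq windows were at hand for 5 of the 9 genes (C3, C1ra, C1s1 with 2 windows, C3ar1 and C5ar1). Each covers 250 bases before to 50 after the start. The start is RefSeq's, and for C1ra it lies inside the GENCODE gene range given above, downstream of the first base of that range. The C/EBP match in C3 runs from base -45 to -38 relative to the start, and that in C1s1 from -242 to -235 in the window shown. The other C1s1 window, from a start further downstream, does not reach these bases and held no match. In C1ra, which codes for the protease that activates C1s, the C/EBP match lies at bases 16 to 23 and the GAS match at bases 32 to 40. No window of the 5 genes held the interferon-stimulated response motif (GAAA, any 2 bases, GAAA) or the NF-κB motif (GGGA, any base, TTTCC), counting both strands. The motifs searched do not overlap each other in these windows. Among 32851 windows of the same length, 10.8% held the C/EBP letters, 8.3% the GAS letters, 3.44% the interferon-stimulated response letters and 0.411% the NF-κB letters. These matches describe the letters of the windows and say nothing of binding.

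Complement transcripts were lower in ESK981 tumours than in vehicle tumours, and the difference was widest for C3. Of the 9 genes, 7 fell in ESK981 against vehicle (C3, C4b, C1s1, C1ra, C5ar1, C3ar1 and Cfb) and none rose. Among all 15846 genes tested, 5.43% were called lower. C2 and Serping1 were also below vehicle but did not pass the test. The median log2 fold change of the 9 genes was -1.04, while that of all genes tested was 0.11. All 9 passed the filter on low values, an FPKM (fragments per kilobase of exon, scaled to the fragments of the library) of at least 0.5 in at least 5 tumours. C2 did so through 15 tumours (none under ESK981, 4 combination, 6 anti-PD-1, 5 vehicle) and Cfb through 8 (none under ESK981, 2 combination, 1 anti-PD-1, 5 vehicle), so neither could have passed through the ESK981 tumours. Of the other 7 genes, at or above 0.5 FPKM in all 33 tumours, 6 were called. Fold changes and their standard errors come from limma on 20 mouse means of log2(FPKM + 0.5), a scale that understates the change of low genes. The folds given below are ratios on that scale, of FPKM + 0.5 and not of FPKM. Benjamini-Hochberg adjustment was over all genes tested, with calls at an adjusted p under 0.05.

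**Figure D1:**
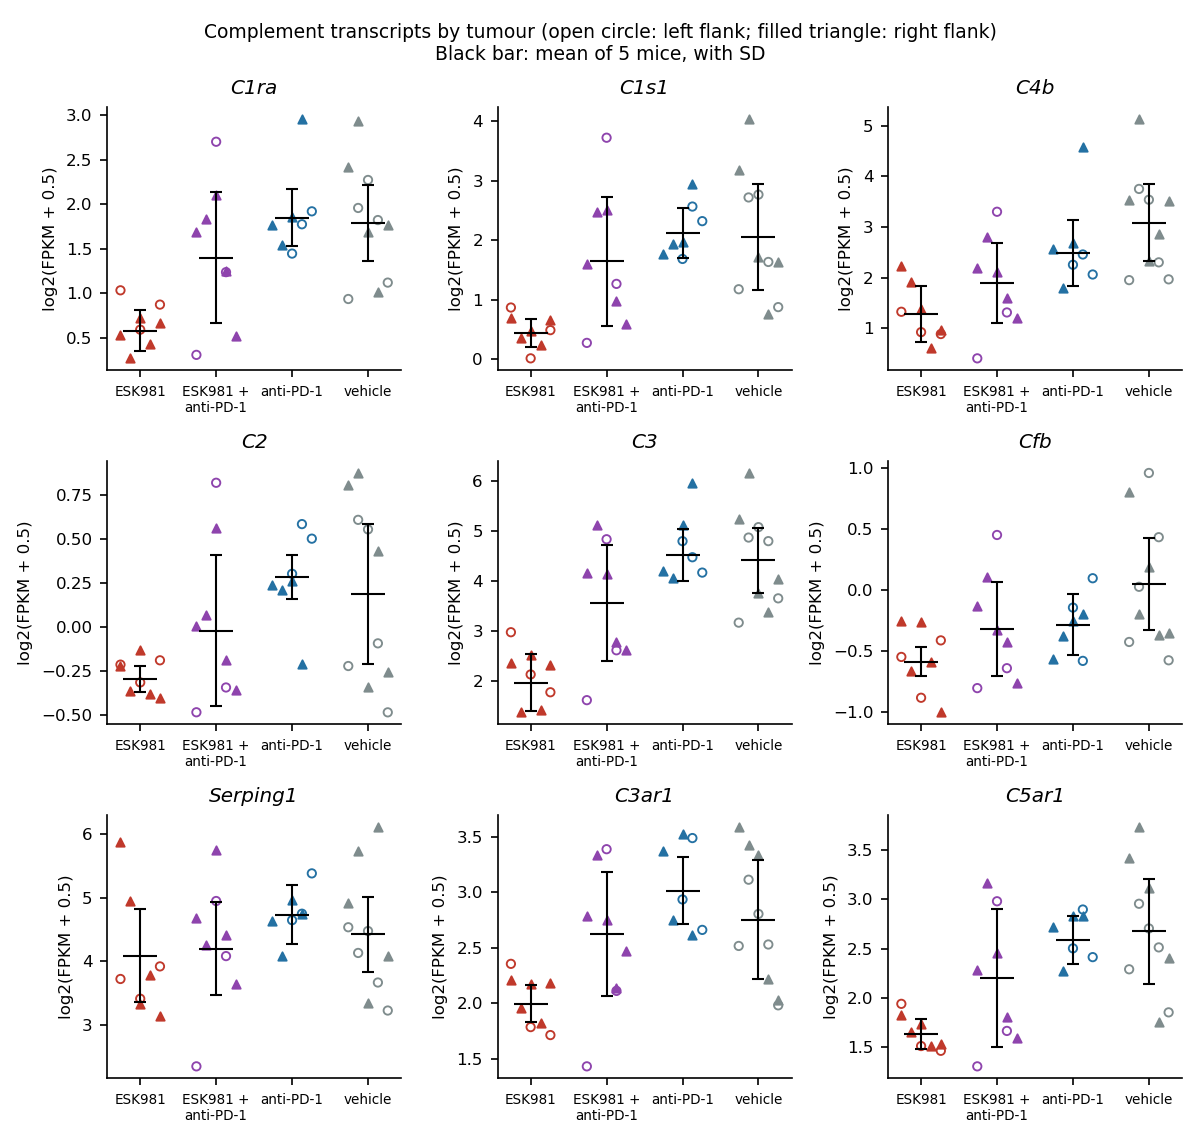
Level of each of the 9 complement transcripts, as log2(FPKM + 0.5), in every tumour of the ESK981, combination, anti-PD-1 and vehicle groups. Open circles are left-flank and filled triangles right-flank tumours, tumours of a mouse share a horizontal position, and black bars give the mean and SD of 5 mice. C3 separates all 8 ESK981 tumours from all vehicle and anti-PD-1 tumours, whereas the groups overlap for Serping1.

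C3 is the component on which all activation pathways meet. Its lowest, median and highest tumour values were 2.10, 4.20 and 7.37 FPKM under ESK981, 2.58, 11.7 and 34.3 FPKM under the combination, 16.1, 21.7 and 61.5 FPKM under anti-PD-1, and 8.49, 21.6 and 70.7 FPKM under vehicle. No ESK981 tumour reached the lowest vehicle or the lowest anti-PD-1 tumour, while the combination tumours spanned the range between them. Over mice, C3 averaged 3.72 ± 1.66 FPKM under ESK981, 15.7 ± 12.5 under the combination, 24.7 ± 11.1 under anti-PD-1 and 25.6 ± 14.0 under vehicle (SD, n = 5 each). The log2 fold change of ESK981 against vehicle was -2.44 ± 0.43 (SE), or 5.43-fold lower, with an adjusted p of 0.00266 by limma. Depth was not limiting for C3, since its fragments per tumour ran from 261 to 944 under ESK981 and from 755 to 5197 under vehicle.

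C4b codes for C4, the target of C1s whose fragment joins that of C2 in the classical convertase. Tumour values (lowest, median, highest) were 1.04, 1.74 and 4.23 FPKM under ESK981, 0.827, 3.18 and 9.37 under the combination, 2.99, 5.00 and 23.4 under anti-PD-1, and 3.37, 8.85 and 34.6 under vehicle. The ESK981 and vehicle tumours overlapped at the edge, but the mean of every ESK981 mouse lay below that of every vehicle mouse. The log2 fold change was -1.81 ± 0.39 (3.51-fold lower, adjusted p = 0.00755). Vehicle mouse 2 stood far above the others at 23.8 FPKM, and without it the fold change was -1.47 with an adjusted p of 0.0241. Across 50-base windows of its transcripts, 34.6% occur also in the copy C4a, so the division of reads between the 2 genes is uncertain.

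C1ra and C1s1 encode the serine proteases of the C1 complex and are neighbours on chromosome 6. C1ra stood at 0.708, 1.05 and 1.55 FPKM in the lowest, median and highest ESK981 tumour, at 0.741, 2.31 and 6.0 in combination tumours, at 2.23, 2.92 and 7.26 in anti-PD-1 tumours, and at 1.42, 2.98 and 7.11 in vehicle tumours. Its ESK981 tumours lay below all anti-PD-1 tumours and met the vehicle tumours only at the lower edge. The log2 fold change of C1ra was -1.21 ± 0.27 (2.31-fold lower, adjusted p = 0.00876).

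For C1s1, ESK981 tumours had 0.507, 0.892 and 1.32 FPKM (lowest, median, highest), combination tumours 0.706, 2.21 and 12.7, anti-PD-1 tumours 2.71, 3.41 and 7.23, and vehicle tumours 1.18, 2.70 and 15.9. The spread under ESK981 was narrow next to that under the combination or vehicle, and no ESK981 mouse mean reached a vehicle mouse mean. C1s1 was 3.06-fold lower under ESK981 than under vehicle (log2 fold change -1.61 ± 0.42, adjusted p = 0.0171). Near-identical copies share part of these genes: 48% of the 50-base windows of C1ra occur in C1rb and 21.8% of those of C1s1 in C1s2. C1s1 also shares 576 exon bases with the antisense gene Gm16567, which was listed at 0 in 28 of 33 tumours.

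C2 and Cfb encode the related proteases that carry the catalytic site of the classical and the alternative C3 convertase. Both were low. C2 reached 0.256, 0.332 and 0.414 FPKM in the lowest, median and highest ESK981 tumour, 0.215, 0.444 and 1.27 in combination tumours, 0.365, 0.698 and 1.0 in anti-PD-1 tumours, and 0.215, 0.644 and 1.34 in vehicle tumours. The ESK981 tumours lay close together and within the range of the vehicle tumours. Its log2 fold change against vehicle was -0.48 ± 0.19, with a 95% interval of -0.88 to -0.09 and an adjusted p of 0.0885.

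Cfb stood at 0, 0.175 and 0.338 FPKM in the lowest, median and highest ESK981 tumour, at 0.0738, 0.272 and 0.869 under the combination, at 0.170, 0.338 and 0.571 under anti-PD-1, and at 0.172, 0.446 and 1.45 under vehicle. It was listed at 0 in 1 tumour, ESK981 5R, and the ESK981 and vehicle tumours overlapped. Cfb was 1.55-fold lower under ESK981 than under vehicle (log2 fold change -0.64 ± 0.20, adjusted p = 0.0352). Its fragments were few, at most 31 per ESK981 tumour and 75 per vehicle tumour.

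The levels of C2 and Cfb cannot be set against those of the other genes. All 3902 exon bases of Gm20547, an annotated read-through of the 2 genes, lie in exons of C2 or Cfb, and it was listed at 0 in all 33 tumours. This leaves 2216 of 3872 exon bases that belong to C2 without Gm20547 and 579 of 2825 that belong to Cfb. How the authors' counting treated reads that fall in more than 1 gene is not given in the sources used here. Whether the share of reads in the overlap differed between groups was not tested.

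**Figure D2:**
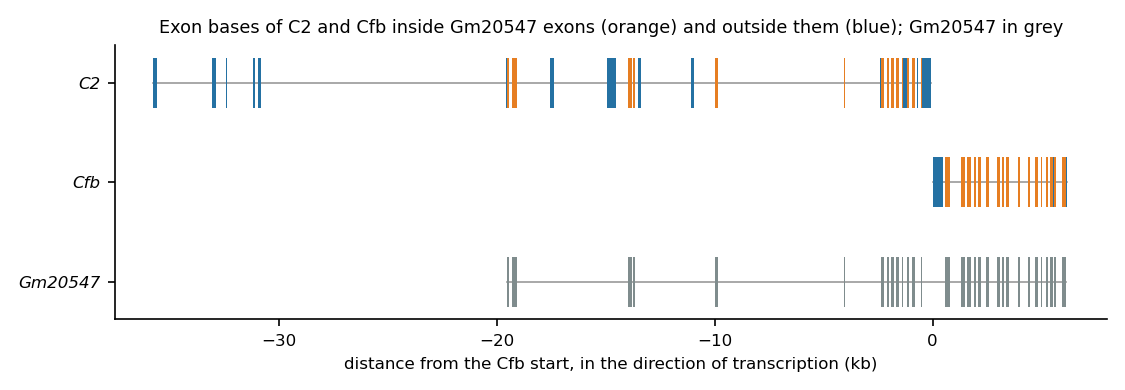
Exons of C2, Cfb and the read-through gene Gm20547 on GRCm38 (GENCODE M21), by distance from the Cfb start in kilobases in the direction of transcription. Orange exon bases of C2 and Cfb lie inside Gm20547 exons (1656 bases of C2 and 2246 of Cfb) and blue ones outside them.

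Serping1 codes for C1 inhibitor, which blocks C1r and C1s, and, with C3, had the highest levels of the 9 by FPKM, a measure per exon length. Its tumours ranged over 8.39, 13.0 and 57.8 FPKM (lowest, median, highest) under ESK981, 4.63, 19.7 and 53.1 under the combination, 16.5, 26.3 and 41.1 under anti-PD-1, and 8.90, 19.4 and 68.4 under vehicle. All 4 groups overlapped over most of their range, with ESK981 1R at the top of its group. Serping1 averaged 20.1 ± 11.9 FPKM under ESK981 and 25.9 ± 11.9 FPKM under vehicle (SD, n = 5 each). The log2 fold change was -0.33 ± 0.36 with a 95% interval of -1.08 to 0.42 and an adjusted p of 0.558. The estimates for C3, C4b, C1s1 and C1ra lie below that interval, which is no test of a difference between genes.

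The 2 receptors, C3ar1 for C3a and C5ar1 for C5a, are found on myeloid cells. C3ar1 had 2.78, 3.70 and 4.62 FPKM in the lowest, median and highest ESK981 tumour, 2.20, 5.65 and 9.98 in combination tumours, 5.62, 7.15 and 11 in anti-PD-1 tumours, and 3.45, 5.89 and 11.5 in vehicle tumours. ESK981 tumours lay below every anti-PD-1 tumour but overlapped with vehicle tumours. Its log2 fold change against vehicle was -0.76 ± 0.25 (1.69-fold lower, adjusted p = 0.0456).

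C5ar1 stood at 2.25, 2.52 and 3.33 FPKM in the lowest, median and highest ESK981 tumour, at 1.96, 3.68 and 8.49 under the combination, at 4.34, 6.09 and 6.95 under anti-PD-1, and at 2.86, 5.61 and 12.9 under vehicle. ESK981 mice lay below every vehicle mouse, and ESK981 tumours below every anti-PD-1 tumour. The receptor was 2.06-fold lower under ESK981 than under vehicle (log2 fold change -1.04 ± 0.27, adjusted p = 0.0165).

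Counted over mouse means, 5 of the 9 genes (C3, C4b, C1ra, C1s1 and C5ar1) had every ESK981 mouse below every vehicle mouse, and 4.05% of all genes tested did. The count of 7 genes has limits. Without vehicle mouse 2 it was 3 (C3, C4b and C1ra), while 2.71% of all genes were called lower. With a term for the flow cell, which rests on vehicle 5R alone, it was 1 (C4b, adjusted p = 0.0329), while 1.46% of all genes were called lower, 36.5% were called in either direction and the median of all genes stood at 0.60. The log2 fold change under that term was -2.10 for C3 (adjusted p = 0.0743), -1.27 for C1ra, -1.40 for C1s1 and -0.92 for C5ar1, but -0.17 for C3ar1, -0.35 for Cfb and -0.16 for C2. Set directly against vehicle 5R, the vehicle tumour on their own flow cell, 8 of 8 ESK981 tumours were lower for C3, C4b, C1ra, C1s1 and C5ar1. It was 6 of 8 for Cfb and Serping1, and 4 of 8 for C2 and C3ar1. These 8 tumours come from 5 mice and are set against 1 library, the shallowest of all. No share of all genes was counted for this, so the counts are a description only.

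All ESK981 and anti-PD-1 tumours share 1 flow cell identifier. The digit after it in the library names, which reads as a lane, is never the same in an ESK981 and an anti-PD-1 tumour. The contrast between these groups was added after the data were seen. All 9 log2 fold changes of ESK981 against anti-PD-1 were below 0, but 0 of 9 passed the adjusted test in limma. Of all genes, 0.00631% passed it, and the median of all genes was -0.008. An unadjusted p under 0.05 was found for 7 of the 9, and for 2194 of the 15846 genes tested, in either direction. C3 was 5.85-fold lower (log2 fold change -2.55 ± 0.43, adjusted p = 0.0569), C1ra 2.40-fold lower (-1.27 ± 0.27, adjusted p = 0.0648) and C3ar1 2.02-fold lower (-1.02 ± 0.25, adjusted p = 0.0857). For 6 genes (C3, C2, C1ra, C1s1, C3ar1 and C5ar1) every ESK981 mouse lay below every anti-PD-1 mouse, against 5.35% of all genes tested. With the 3 libraries of low depth or high ribosomal RNA left out (combination 5R, anti-PD-1 4R, vehicle 5R), 4 of 9 were called, and 4.40% of all genes were called lower.

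**Figure D3:**
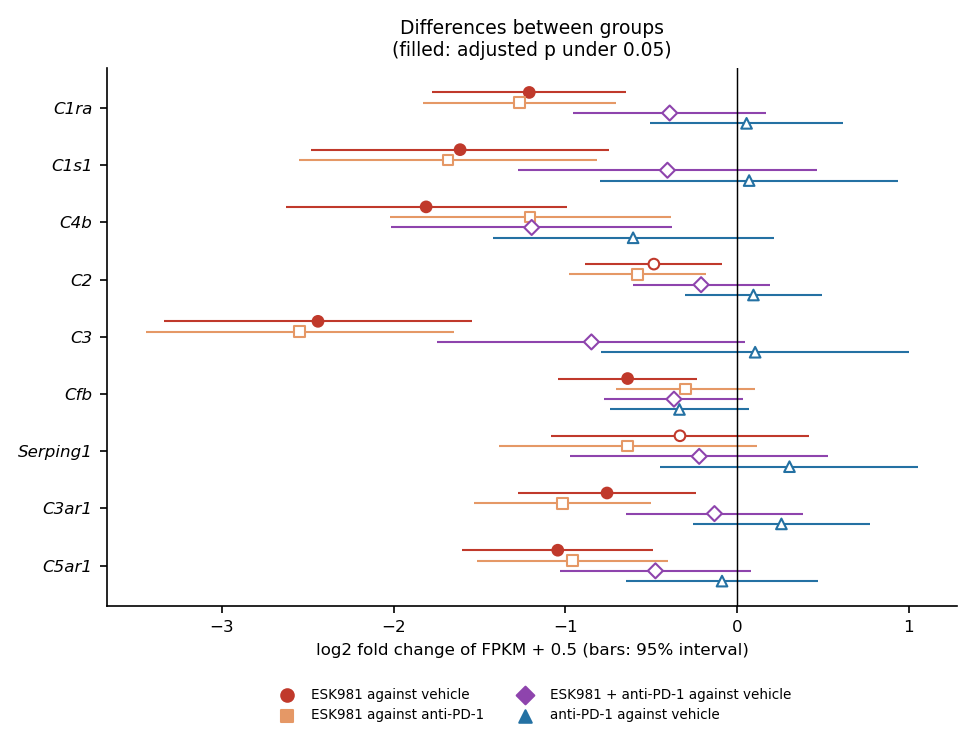
Log2 fold changes of FPKM + 0.5 with 95% intervals for the 9 genes in 4 comparisons: ESK981 against vehicle, ESK981 against anti-PD-1, the combination against vehicle, and anti-PD-1 against vehicle. Filled symbols have an adjusted p under 0.05, which only 7 of the ESK981 against vehicle values reach.

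The combination tumours did not differ from vehicle by the test for any of the 9 genes, though all 9 estimates lay below 0. Of all genes, 0.606% were called in either direction, and the median log2 fold change of all genes was 0.025. An unadjusted p under 0.05 was found for 1 of the 9, and for 1970 of the 15846 genes tested, in either direction. C4b came nearest, at 3.92 ± 2.41 FPKM under the combination and 10.3 ± 7.58 FPKM under vehicle (SD, n = 5 each; log2 fold change -1.20 ± 0.39, adjusted p = 0.196), followed by C3 (-0.85 ± 0.43, adjusted p = 0.432). Combination mice varied widely: the SD of C3 over mice on the log2 scale was 1.16 under the combination, 0.565 under ESK981 and 0.648 under vehicle. Combination 2R and 3L held 34.3 and 28 FPKM of C3, while 4L, 4R and 5R held 5.64, 6.34 and 5.65.

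Against ESK981 given alone, all 9 genes were higher in point estimate under the combination, from 0.11 (Serping1) to 1.59 (C3) on the log2 scale. None passed the test, and 0.0% of all genes did, so the comparison had no calls at all. The median of all genes was -0.093. An unadjusted p under 0.05 was found for 5 of the 9, and for 1226 of the 15846 genes tested, in either direction. C3 was estimated at 3.02-fold higher (1.59 ± 0.43, adjusted p = 0.359), C1s1 at 2.31-fold (1.21 ± 0.42, adjusted p = 0.541) and C1ra at 1.76-fold (0.82 ± 0.27, adjusted p = 0.507). Set against anti-PD-1 alone, the combination gave 9 estimates below 0, none called (0.0% of all genes), with C3 at -0.96 ± 0.43 and an adjusted p of 0.807. The median of all genes in that comparison was -0.092.

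Anti-PD-1 tumours had 0 of 9 genes called against vehicle in limma (0.783% of all genes). An unadjusted p under 0.05 was found for 0 of the 9, and for 2089 of the 15846 genes tested. The estimates ran from -0.61 ± 0.39 for C4b to 0.31 ± 0.36 for Serping1, with 3 below and 6 above 0. The median of all genes was 0.126. For C3 the estimate was 0.11 with a 95% interval of -0.79 to 1.0. The interaction compares the effect of adding ESK981 in mice given anti-PD-1 with its effect in mice not given it, as the first minus the second, and it was above 0 for 8 of 9 genes. None was called (0.0252% of all genes), and the median interaction of all genes was -0.215. An unadjusted p under 0.05 was found for 3 of the 9, and for 2879 of the 15846 genes tested, in either direction. The interaction was 1.49 ± 0.61 for C3 (adjusted p = 0.218) and -0.19 ± 0.51 for Serping1 (adjusted p = 0.853). The comparisons share groups, so their values are not independent of each other. The 9 genes also varied together within groups, so their like signs are not separate evidence.

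On the log2 scale of the test, the mean of all 9 genes was lowest under ESK981 and second lowest under the combination. Anti-PD-1 came next and vehicle highest for C4b, Cfb and C5ar1, while anti-PD-1 was highest for C3, C2, Serping1, C1ra, C1s1 and C3ar1. By mean FPKM the order of anti-PD-1 and vehicle turned round for C3, C1ra and C1s1, and that of the combination and anti-PD-1 for Cfb, with 0.339 ± 0.229 FPKM under the combination and 0.333 ± 0.150 FPKM under anti-PD-1 (SD, n = 5 each). In each of these orders no pair of neighbouring groups differed by the test. The only calls among the study's comparisons were between ESK981 and vehicle.

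Other complement genes were described from lists of recognition molecules and proteases, terminal components, regulators and receptors. Among 17 other recognition molecules and proteases 6 were tested and 3 fell in ESK981 against vehicle, with a median log2 fold change of -0.83 over the 6. Cfp, which codes for properdin, the stabiliser of the alternative convertase, averaged 3.95 ± 0.874 FPKM under ESK981 and 9.13 ± 2.52 FPKM under vehicle (SD, n = 5 each; -1.06 ± 0.25, adjusted p = 0.0112). C1qa, a chain of the recognition molecule C1q, averaged 27.2 ± 6.42 FPKM under ESK981 and 57.4 ± 17.5 FPKM under vehicle (-1.03 ± 0.30, adjusted p = 0.0279). C1rb was also called (-0.75 ± 0.18, adjusted p = 0.0119), at 0.0661 ± 0.0268 FPKM under ESK981 and 0.49 ± 0.232 FPKM under vehicle. Its highest tumour held 0.104 FPKM under ESK981 and 0.484 under the combination, so it passed the filter only through vehicle and anti-PD-1 tumours. C1rb is also the copy that shares sequence with C1ra, and the division of reads between them is uncertain. C1qb and C1qc had adjusted p of 0.0587 and 0.058. Fcnb, Mbl1 and Mbl2, which code for lectin pathway recognition molecules, were listed at 0 in every tumour.

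Terminal components, which build the membrane attack complex, were low in most tumours: 1 of 7 was tested (C6, -0.55 ± 0.33, adjusted p = 0.265). Their summed level had a median of 0.389 and a highest value of 1.28 FPKM under ESK981, 0.471 and 1.29 under the combination, 0.477 and 5.26 under anti-PD-1, and 0.922 and 4.51 under vehicle. Of 14 other regulators 4 were tested and none was called, with Clu, which codes for the terminal pathway inhibitor clusterin, at 0.10 ± 0.21 (adjusted p = 0.787). Among 6 other receptors 3 were tested and 2 fell. Itgb2, the shared beta chain of complement receptors 3 and 4, averaged 4.20 ± 1.37 FPKM under ESK981 and 18.8 ± 6.81 FPKM under vehicle (-1.96 ± 0.33, adjusted p = 0.00193). Itgam, the alpha chain of receptor 3, averaged 0.828 ± 0.214 FPKM under ESK981 and 2.35 ± 0.901 FPKM under vehicle (-1.04 ± 0.25, adjusted p = 0.0133), while Itgax was not called (adjusted p = 0.0837). No gene of these lists was called in any other comparison of the study.

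Interferon gamma signalling genes and markers of other cell types moved in the same comparison. All 18 interferon gamma targets of the list were called lower in ESK981 against vehicle, with a median of -1.73. Ifng averaged 0.153 ± 0.143 FPKM under ESK981 and 0.969 ± 0.460 FPKM under vehicle (-1.03 ± 0.30, adjusted p = 0.0291). Irf1, a transcription factor that interferon gamma induces, averaged 8.47 ± 2.61 FPKM under ESK981 and 26.5 ± 8.75 FPKM under vehicle (-1.54 ± 0.30, adjusted p = 0.00449; SD, n = 5 each).

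Markers of several cell types fell as well. Macrophage markers were lower for 6 of 10 genes (summed 82.8 to 136 FPKM in ESK981 tumours, 107 to 795 in vehicle tumours), fibroblast markers for 5 of 9 tested (30.6 to 61.4 FPKM in ESK981 tumours, 57.7 to 711 in vehicle tumours) and T cell markers for 4 of 7 (0.982 to 3.52 FPKM in ESK981 tumours, 0.742 to 12.6 in vehicle tumours). Neutrophil markers were lower for 1 of 3 tested, and hepatocyte markers, of the main source of plasma complement, for 0 of 3 tested. Endothelial markers were higher for 3 of 7, epithelial and prostate tumour markers for 1 of 4 tested and the 1 adipocyte marker tested, and skeletal muscle markers had 0 of 5 called. Of all genes tested, 14.4% were called in either direction and 5.43% were called lower. Counts over so few markers are a description only. None of the macrophage, fibroblast or T cell markers was at 0 in every tumour, and 12 of 13 mitochondrially encoded genes were called lower. The part of these cell types, of interferon gamma and of RNA quality in the complement differences was not tested.

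Within the groups the 9 genes varied together to different degrees. After the group means were subtracted, Pearson's r over 20 mice was above 0 for all 36 pairs, with a median of 0.667. It was highest for C1ra with C1s1 (0.941), neighbours whose products work as a pair, and for the receptors C3ar1 with C5ar1 (0.911), and lowest for C4b with Cfb (0.27). Serping1 took part in 7 of the 10 lowest values. These correlations share library, depth and cell mixture among their points and are given as a description. The r of pairs drawn from all genes was not computed, so the values cannot be called particular to these 9 genes.

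Genes outside the set with the highest r to each member, over the same 20 mice, were Kcnab2, Gypc and Sept8 for C3 (0.932 to 0.916), and, for C4b, Man1a (0.934) and Npl (0.927). They were Crip1, Eif4e3 and Casp1 for C1ra (0.948 to 0.925) and Casp4, Cxcl12 and Mmp19 for C1s1 (0.945 to 0.934). For C2 they were Tspan17, Cacnb1 and Gm4841 (0.944 to 0.910), for Cfb Ly6i, Chil1 and AB124611 (0.940 to 0.914), and for Serping1 Aldh7a1, Ghr and Acot6 (0.943 to 0.899). The receptors were closest to Fbxw17, Lyl1 and Man1c1 (C3ar1, 0.943 to 0.941) and to Vsir, Lrp1 and Zdhhc14 (C5ar1, 0.967 to 0.963). They were picked from 15846 genes for their high values, which are a description with no test.

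Tumours of the same mouse could differ as much as groups did. In the 13 mice with both flanks, the median absolute difference between them on the log2 scale ran from 0.258 for C2 to 1.19 for C4b, and it was 0.701 for C3. C4b was higher in the right tumour in 11 of the 13 mice and C3 in 9. The widest gap for C3 was 2.55 on the log2 scale in combination mouse 1, with 17.5 FPKM on the right and 2.58 FPKM on the left. For Serping1 it was 2.44 in vehicle mouse 4, with 68.4 FPKM on the right and 12.2 FPKM on the left.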

How the data were processed

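RNA sequencing of 33 tumours was available as 1 table of FPKM, which the authors deposited. The submitters' processing notes name STAR, featureCounts and the build mm10. Not given in the sources used here are tool versions, annotation, strand use and the handling of reads in overlapping genes. Low values were whole multiples of 1 fragment (100% within 0.01 in each tumour), from which the fragments of each library were recovered. No count model was used, since FPKM are scaled by depth.

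The deposited FPKM were put on the log2(FPKM + 0.5) scale and each mouse's tumours averaged. The 15846 genes that reached 0.5 FPKM in 5 or more tumours were fitted in limma 3.58.1 (R 4.3.3) with a mean-variance trend, 4 groups, 16 residual and 5.07 prior degrees of freedom and two-sided tests. p-values were adjusted by Benjamini-Hochberg over all genes. Labels name the mouse by ear tag, so the mouse is the replicate. Tables were made with Python 3.11.15.

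The 9 genes and the gene lists were chosen with earlier results of these data known. All 9 genes were named whatever their result, with Ifng and Irf1. Of the other complement lists up to 4 called genes each were named, by the smallest adjusted p, and other named genes of those lists were chosen after their values were seen. The 3 other genes with the highest r to each of the 9 were named too. Some genes that these rules take are not reported here. Alternatives changed the pseudocount, the filter, the scaling, the unit (single tumours with the mouse as a random block, with or without a flow cell term), the flank and the libraries included. Gene positions are GENCODE M21, and promoter sequences are RefSeq's.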

Additional observations from a re-analysis of the deposited data

Results flagged for a closer look

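The level of C4b in vehicle mouse 2 stood apart from the other vehicle mice. It was 23.8 FPKM in that mouse and between 5.60 and 7.84 FPKM in the other 4, and on the log2(FPKM + 0.5) scale its gap to the nearest mouse was 0.809 of the whole range, above the critical value of 0.71 for 5 mice. Of 36 combinations of gene and group examined this way this was the 1 that passed, and chance flags about 1 in 20 such groups. The same mouse held the highest C3 of any tumour, 70.7 FPKM in its right tumour, whose fibroblast markers summed to 711 FPKM, the highest of all tumours. The relation between these values was not tested.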

How the results depend on the processing

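All 9 ESK981 against vehicle estimates stayed below 0 under all alternatives run (32 each, 31 for C2 and Cfb). Of these, C4b was called under 32, C3 and C1ra under 31, C1s1 and C5ar1 under 30, Cfb under 19, C3ar1 under 15, C2 under 2 and Serping1 under 0. The number of genes called was 7, and 1 with single tumours and a flow cell term, where C1ra had an adjusted p of 0.0989, C5ar1 0.158, C1s1 0.195, Cfb 0.54 and C3ar1 0.808. Leaving out each mouse in turn gave 3 to 8, with 2.71% to 7.59% of all genes called lower, and the remaining settings 5 to 8. Over all settings that leave out no single mouse, 1.46% to 14.4% of all genes were called lower. The median of all genes was 0.00 with median-of-ratios scaling and 0.26 with scaling that leaves out ribosomal-RNA-like and mitochondrial genes. Without vehicle mouse 2, the setting with 3, C5ar1 had an adjusted p of 0.0538, C1s1 0.0546, Cfb 0.0574 and C3ar1 0.121. The cause was not tested.

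For ESK981 against anti-PD-1 the count of 0 became 1 under a filter of 1 FPKM or more in 10 or more tumours, 2 with median-of-ratios scaling and 4 without the 3 libraries of low depth or high ribosomal RNA. The share of all genes called was 0.0158%, 1.06% and 4.87% in these 3 settings. Leaving out each mouse gave 0 to 5 (0.0% to 1.14% of all genes), the highest without combination mouse 2, which acts only through the shared spread. Counts for the other 5 comparisons stayed at 0 under all 32 alternatives, also with the flow cell term, which called 28.2% of all genes for the combination against vehicle, 27.7% for anti-PD-1 against vehicle and 25.5% for the interaction. Serping1, never called, changed sign in the combination against ESK981 without ESK981 mouse 3, ESK981 mouse 5 or combination mouse 3 (range on leaving out each mouse -0.174 to 0.327), and in anti-PD-1 against vehicle with right-flank tumours alone (-0.23). Its interaction changed sign with median-of-ratios scaling (0.062), right-flank tumours alone (0.56), without ESK981 1R and 2R (0.29), without these and the 3 libraries above (0.34, an alternative chosen after seeing the data) and without ESK981 mouse 2 (range on leaving out each mouse -0.48 to 0.022). No paired analysis was possible because the mouse numbers pair nothing across groups. Low depth limits Cfb and C2.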

Other observations

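In 2 tumours, chosen after their values were seen, interferon genes stood low while C3 and C4b did not. In anti-PD-1 4R the 18 interferon gamma targets summed to 63.9 FPKM, against 131 to 285 FPKM in the other 6 tumours. The same tumour had the highest C3 (61.5 FPKM), C4b (23.4 FPKM), C1ra (7.26 FPKM) and C1s1 (7.23 FPKM) of the group and the highest summed fibroblast markers (162 FPKM), but the lowest C2 (0.365 FPKM). Vehicle 5R had an interferon target sum of 54.4 FPKM, the lowest among vehicle tumours, with 15.9 FPKM of C3 and 10.9 FPKM of C4b, inside the range of the other vehicle tumours. ESK981 1L had a target sum of 126 FPKM and 7.37 FPKM of C3, both the highest of its group, with 2.01 FPKM of C4b. Combination 1R, 2R, 3L and 3R had target sums of 230 to 355 FPKM and C3 of 17.0 to 34.3 FPKM. Combination 1L, 4L, 4R and 5R had lower values of both, 46.3 to 159 FPKM and 2.58 to 6.34 FPKM. Anti-PD-1 4R and vehicle 5R were the shallowest of their groups (1.13e+07 and 9.90e+06 fragments). They were also the highest in mitochondrially encoded transcripts (52700 and 90900 FPKM), and the part of this in their levels was not tested.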
